A study of Phaseolus vulgaris with 6 samples.

Results

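The ethylene genes and AP2/ERF transcription factors of common bean (Phaseolus vulgaris) were compared between stem apices of the wild type A18 and of the mutant nts. Members were all genes whose description in the deposited table contained ethylene, Integrase-type DNA-binding, 1-aminocyclopropane, ACC synthase, ACC oxidase, AP2 or DREB, without regard to case. This rule took 238 of the 27012 gene models. Of these, 28 were ethylene synthesis, receptor and signalling genes and 197 were transcription factors named for the AP2 domain or for binding ethylene response elements. The remaining 13 matched only through a longer word or a partner's name (methylenetetrahydrofolate reductases, PAP2 phosphatases and DREB2A-interacting proteins) and were set apart.

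Gene expression was measured by RNA sequencing of the top stems, with 3 samples of A18 and 3 of nts, taken at first flowering when the apex of the mutant had come to look different. Apart from the genotype names, the labels give no allele, treatment or plant number, and all plants shared a single growth regime. Nothing states that samples of the same genotype were taken from different plants, so the tests gauge how far these samples vary and no more.

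Ethylene is made from S-adenosylmethionine by ACC synthase, which forms the precursor ACC, and ACC oxidase, which turns ACC into the gas. Receptors of the histidine kinase type repress the pathway until they bind ethylene, after which EIN3-type transcription factors accumulate and switch on genes that include ERF factors. In stems the hormone is known for restraining elongation and for acting on radial growth and bending. The AP2/ERF family is wider than ethylene: its DREB branch is known for cold and drought responses, and its AP2 branch for flowering and meristems.

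Total counts per library ran from 40728394 to 62695701. A18 replicate 2 and nts replicate 3 stood apart from the others of their genotype. A18 replicate 2 had 9.53% of all 21126 tested genes at least 2-fold above both other A18 libraries, against 2.31% and 1.95% for replicates 1 and 3. For nts replicate 3 the share was 8.70%, against 1.52% and 2.58% for nts replicates 1 and 2. Marker lists drawn by description words were read beside the labelled tissue. Shoot meristem and boundary genes (79 genes, 26 of them at 0 counts in every library) summed to 1445 to 1552 FPKM in A18 and 985 to 1432 in nts. Green tissue genes (83 genes, 6 at 0 counts) summed to 21041 to 43289 and 35086 to 36744 FPKM. Flower and seed genes (195 genes, 90 at 0 counts) had higher sums than the meristem list in every library. Lists this broad cannot test the tissue label. FPKM is the authors' fragment level scaled to transcript length and depth. Markers of fibre and xylem secondary walls (60 genes, 4 of them at 0 counts in every library) summed to between 8024 and 10635 FPKM in A18 and between 557 and 2801 in nts, and 32 of the 51 tested were lower in nts and 1 higher (log2 change of 2 or more in size, unadjusted p up to 0.05), where 3.37% of all tested genes were lower and 2.06% higher. Of the meristem list 9 of 43 tested were lower and 1 higher, of the green list 0 of 75 were past the thresholds, and of the flower and seed list 12 of 77 were lower and 5 higher. The part of these differences in the values that follow was not tested, and in such bulk samples fewer cells of a type cannot be told apart from less RNA per cell.

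No ethylene or AP2/ERF gene passed edgeR's test with adjustment over all genes. Of the 225 genes, 138 had enough counts to be tested, 51 had 0 counts in all 6 libraries and 36 had some counts but fell under the filter. With edgeR's quasi-likelihood test, 0 of the 138 had a Benjamini-Hochberg adjusted p under 0.05, where 0.0947% of all tested genes did, and the lowest adjusted p was 0.0781. At an unadjusted p under 0.05 there were 37, or 26.8%, against 18% of all tested genes. DESeq2 gave 24 of the 138 an adjusted p under 0.05, with 9 higher and 15 lower in nts, against 11.3% of all tested genes. The edgeR count was 7 without A18 replicate 2 (background 4.38%), 6 without nts replicate 3 (4.45%) and 39 without both (19.9%). Leaving out any other single library gave 0, where at most 0.00464% of all tested genes passed. Adjusted p-values quoted here and below from fits without A18 replicate 2 or nts replicate 3 are therefore no independent support. Limma gave 3 on log2(FPKM + 1) (background 2.17%), 5 on log2(FPKM + 0.1) (2.26%) and 46 on counts with sample quality weights (24.4%).

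The study labelled a gene as differential where its log2 change reached 2 or -2 with an unadjusted p no greater than 0.05, and genes past these thresholds are called higher or lower here. Of the 138, 7 were higher and 12 lower in nts. Across all tested genes 2.06% were higher and 3.37% lower, 5.43% in all. In 46 of the 138 the genotypes did not overlap, against 24.3% of all tested genes (20 with nts higher, background 10%, and 26 with nts lower, background 14.3%). Genes detected in a single genotype pass the filter through that genotype and so had to differ, and 5 of the 19 were of this kind.

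Among the enzymes of ethylene synthesis, 1 of the less abundant ACC oxidases was lower in nts without overlap, while the most abundant overlapped between the genotypes. Of 8 ACC oxidase genes (7 described as ethylene-forming enzyme) 6 were tested, and 2 were lower in nts at the study's thresholds, beside 3.37% of all tested genes. Only 1 of the 6 separated the genotypes. Phvul.003G082300 (chromosome 3, 13663794 to 13665301, plus strand) had 39.3, 15.1 and 47.0 FPKM in A18 replicates 1, 2 and 3 and 3.20, 9.38 and 4.89 in the nts replicates. Every A18 library lay above every nts library, and the means were 33.8 ± 16.6 and 5.82 ± 3.19 FPKM (SD, n = 3). The log2 change was -2.43 ± 0.53 (SE; edgeR adjusted p = 0.0982). It stayed past the study's thresholds under all 14 alternatives, and the adjusted p was 0.000213 with DESeq2. Without A18 replicate 2, its lowest A18 library, the edgeR adjusted p was 0.0444, in a fit that called 4.38% of all genes.

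Phvul.002G326600 (chromosome 2, 49115154 to 49116560) was the other, with 2.14, 11.9 and 0.539 FPKM in A18 and 0.0477, 0.181 and 0.784 in nts. Here the genotypes overlapped, since nts replicate 3 exceeded A18 replicate 3 (edgeR log2 change -3.82 ± 1.46, adjusted p = 0.243, n = 3). The call was lost in 6 of 14 alternatives, without A18 replicate 2 (-1.77), nts replicate 1 or nts replicate 2 among them.

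The ACC oxidase that held most of the family's transcript did not differ beyond its spread. Phvul.008G214200 (chromosome 8, 56253940 to 56255545) accounted for 62.4% to 86.9% of the summed ACC oxidase FPKM in each library. Its level was 336, 396 and 285 FPKM in A18 and 160.1, 229 and 424 in nts, so that nts held both the lowest and the highest library. The edgeR log2 change was -0.25 ± 0.42 (adjusted p = 0.797, n = 3). The next, Phvul.006G144900, had 55.8, 33.0 and 122 FPKM in A18 and 62.9, 44.5 and 87.1 in nts, with the ranges nested. Summed over the family, ACC oxidase transcript was 449 ± 12.6 FPKM in A18 and 342 ± 154 in nts (SD, n = 3). ACC oxidase 1 (Phvul.002G304200), under the filter, had 0.252, 0 and 0.945 FPKM in A18 and no counts in nts. The neighbouring copies Phvul.008G213800 and Phvul.008G213914 stayed under 1 FPKM in all libraries, and how reads were split among such copies is not stated.

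ACC synthase, the step usually held to limit ethylene output, came down to a single variable gene. Phvul.002G293000, ACC synthase 1 (chromosome 2, 46198418 to 46200625), had 0.984, 61.6 and 0.813 FPKM in A18 and 89.3, 41.9 and 3.13 in nts. A18 replicate 2 thus read like nts replicates 1 and 2, and nts replicate 3 was closer to A18 replicates 1 and 3. With all 6 samples the log2 change was 1.03 ± 1.81 (edgeR adjusted p = 0.811, n = 3). Without A18 replicate 2 it was 5.80 (adjusted p = 0.102), and without A18 replicate 2 and nts replicate 3 it was 6.29 (edgeR adjusted p = 0.00603, with 2 samples left in each genotype). Both libraries set aside are those that stood apart over all genes, and also those that ran against a difference in this gene. The fit without both, here and below, was added after the data were seen. It gave 19.9% of all genes it tested an adjusted p under 0.05, so its p-values are no independent support.

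Phvul.002G152200 is described as ACC synthase 10, whose Arabidopsis namesake acts as an aminotransferase and not in ACC synthesis. It had 15.2, 11.8 and 20.9 FPKM in A18 and 2.40, 5.15 and 8.96 in nts, without overlap (edgeR log2 change -1.44 ± 0.49, adjusted p = 0.202). The other ACC synthases, Phvul.008G058400, Phvul.010G103900 and Phvul.002G159800, had 0 counts or almost none in every library.

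All 6 ethylene receptor genes were expressed, and their levels were close between the genotypes. In order of level, ethylene response sensor 1 (Phvul.001G210200) had 53.6, 54.1 and 48.7 FPKM in A18 and 41.8, 44.8 and 50.8 in nts. The sensor kinase Phvul.007G129500 followed with 35.7, 53.1 and 39.04 FPKM in A18 and 35.3, 35.6 and 50.3 in nts, a range that overlapped that of response sensor 1 in both genotypes. Phvul.011G216400 lay below both with 18.2, 22.2 and 23.0 FPKM in A18 and 17.2, 15.3 and 20.2 in nts.

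The lowest receptors were Phvul.007G271700 and the neighbours Phvul.006G106300 and Phvul.006G106400, whose A18 means were 10.6 ± 3.50, 5.63 ± 0.676 and 4.68 ± 0.201 FPKM (SD, n = 3). Of the 6 receptors 0 had separated genotypes, where 24.3% of all tested genes did. All 6 log2 changes were below 0, but 5 were under 0.5 in size. The exception was Phvul.007G271700, with 6.65, 12.1 and 13.1 FPKM in A18 and 4.51, 4.36 and 7.12 in nts (edgeR log2 change -0.93 ± 0.37, adjusted p = 0.257). For response sensor 1 the log2 change was -0.11 ± 0.19 (edgeR adjusted p = 0.801). Receptor transcript summed to 137 ± 14.6 FPKM in A18 and 118 ± 18.4 in nts.

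The EIN3 family, the transcription factors on which the pathway converges, held 3 expressed genes and 3 at or near 0 counts. Phvul.008G207000 (chromosome 8, 55497090 to 55498925) had 178, 91.7 and 157 FPKM in A18 and 44.8, 32.8 and 89.8 in nts. The genotypes did not overlap, though A18 replicate 2 and nts replicate 3 came within 2 FPKM of each other. The log2 change was -1.24 ± 0.44 (edgeR adjusted p = 0.217, n = 3). Without nts replicate 3 the adjusted p was 0.0490, and without both libraries that stood apart the log2 change was -2.002 (edgeR adjusted p = 0.0112).

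For the neighbouring pair on chromosome 6 the genotypes overlapped. Phvul.006G011200 had 142, 66.2 and 123 FPKM in A18 and 97.2, 73.7 and 107 in nts, and Phvul.006G011300 had 74.7, 46.2 and 75.2 in A18 and 61.8, 38.1 and 68.8 in nts. Their edgeR log2 changes were -0.14 ± 0.31 and -0.11 ± 0.30 (adjusted p = 0.850 and 0.878). In both genes A18 replicate 2 was the lowest A18 library.

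Also named for ethylene were plastid proteases and a nuclear protein. Phvul.002G050700, ethylene-dependent gravitropism-deficient and yellow-green-like 3, belongs to a family of membrane metalloproteases of plastids. It had 1.60, 1.81 and 5.63 FPKM in A18 and 0.529, 0.401 and 0.282 in nts, and was the third pathway gene lower at the study's thresholds (edgeR log2 change -2.79 ± 0.62, adjusted p = 0.102). Without A18 replicate 3, its highest library, the log2 change was -2.03. Its relative, yellow-green-like 2 (Phvul.008G225100), had 54.9, 56.9 and 69.8 FPKM in A18 and 85.6, 78.0 and 78.6 in nts, the reverse order with no overlap (edgeR log2 change 0.49 ± 0.19, adjusted p = 0.242). The nuclear protein ERT2 (Phvul.006G126000) had 20.0 ± 11.3 FPKM in A18 and 15.4 ± 1.51 in nts.

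**Figure D1:**
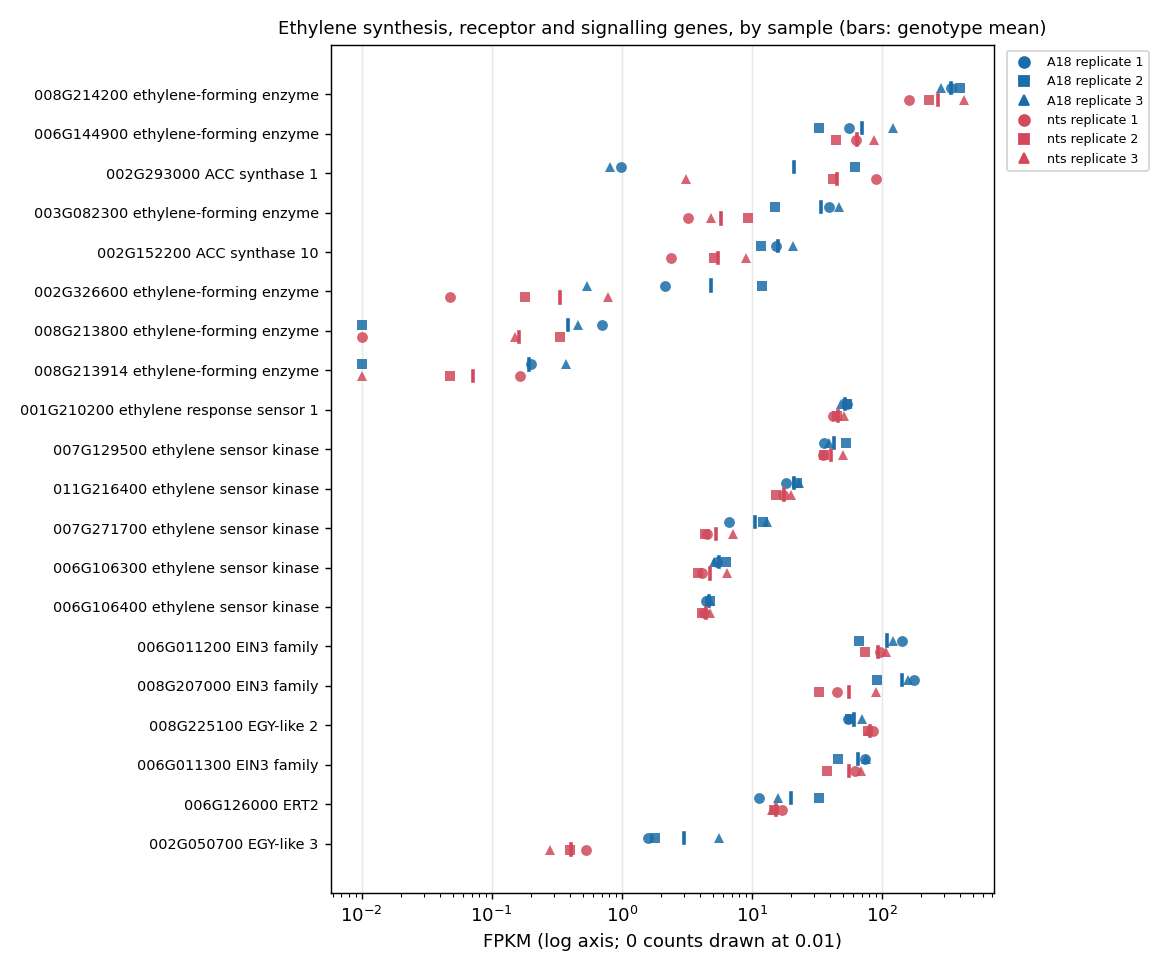
FPKM (log axis) of the 20 tested ethylene synthesis, receptor and signalling genes in each of the 6 samples, with a vertical bar at each genotype's mean and 0 counts drawn at 0.01. For each receptor the points of both genotypes lie near each other, 003G082300 and 002G050700 separate the genotypes, and ACC synthase 1 (002G293000) runs from 0.813 to 61.6 FPKM within A18.

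Over these 20 tested pathway genes the median log2 change was -0.22, with 18 below 0, against a median of 0.00217 over all tested genes. In nts 3 of them were lower and 0 higher, beside 3.37% and 2.06% of all tested genes. Without both libraries that stood apart 6 were lower and 1 higher, in a fit where 6.71% of all genes were lower and 4.86% higher.

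Pathway genes that the description words do not reach were read from a separate list of 25 genes, 24 of them tested. Of these 1 was lower and 0 higher past those thresholds, beside 3.37% and 2.06% of all tested genes. The largest values in the list were those of S-adenosylmethionine synthetases, which supply the substrate of ACC synthase. Neighbouring genes on chromosome 3 led: Phvul.003G120201 had 975, 861 and 1777 FPKM in A18 and 414, 451 and 399 in nts. Phvul.003G120300 had 717, 674 and 1522 FPKM in A18 and 268, 270.5 and 278 in nts, without overlap (edgeR log2 change -1.74 ± 0.37, adjusted p = 0.0963). The chromosome 7 gene Phvul.007G210700 likewise had 93.9, 161 and 142 FPKM against 35.7, 45.5 and 49.0 (edgeR log2 change -1.55 ± 0.30, adjusted p = 0.0828).

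On chromosome 1, by contrast, Phvul.001G216600 had 180.5, 423 and 156 FPKM in A18 and 531, 553 and 192 in nts, with overlap (edgeR log2 change 0.77 ± 0.59, adjusted p = 0.547). All 10 synthetase genes together summed to 3812 ± 1198 FPKM in A18 and 1936 ± 403 in nts (SD, n = 3), and the libraries of the genotypes did not overlap in this sum. The sum is weighted to the abundant chromosome 3 copies. By gene, 5 log2 changes were above 0 and 5 below, with a median of 0.037. The genotypes separated in 1 gene with nts higher and in 4 with nts lower, beside 10% and 14.3% of all tested genes. Since the chromosome 3 copies are neighbours, the split of reads among them is uncertain.

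EIN3-binding F box proteins mark EIN3 for destruction, and 5 genes carry this description. Phvul.009G080700, a weakly expressed copy, had 0.509, 0.507 and 0.690 FPKM in A18 and was not counted in any of the 3 nts libraries, and was at least 21.5-fold lower, taking 3 counts in each library as the floor (edgeR adjusted p = 0.0705). This bound and those that follow take 1 count as 1 fragment, and would be smaller if a fragment was counted more than once. Phvul.009G080700 passed the filter through its A18 counts alone, so its adjusted p and its call lend no support to a difference. The most abundant, Phvul.001G051300, averaged 93.2 ± 37.2 FPKM over A18 and 93.7 ± 6.80 over nts (edgeR log2 change 0.11 ± 0.29, adjusted p = 0.884). Phvul.003G165500 had 48.7, 47.6 and 73.2 FPKM against 19.9, 16.9 and 47.4 (edgeR log2 change -0.91 ± 0.44, adjusted p = 0.345). The DUF778 gene Phvul.001G034800, of the family that holds the Arabidopsis receptor regulator RTE1, had 64.3, 101 and 111 FPKM against 37.8, 40.6 and 57.3 (edgeR log2 change -0.95 ± 0.30, adjusted p = 0.181).

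Of the genes known as ethylene outputs in Arabidopsis (pathogenesis-related 4, osmotin and basic chitinase), 11 of 15 were tested. Beside 2.06% higher and 3.37% lower of all tested genes, 0 were lower and 1 was higher past those thresholds. This was Phvul.006G102200, a pathogenesis-related 4 gene for a chitin-binding defence protein. It had 35.4, 47.9 and 21.5 FPKM in A18 and 158, 185 and 88.5 in nts, without overlap (edgeR log2 change 2.08 ± 0.42, adjusted p = 0.0867). It dropped below the threshold of size at 1.81 without A18 replicate 3 and 1.91 without nts replicate 2. Its neighbour Phvul.006G102300 overlapped between the genotypes and had a log2 change of -0.17.

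AP2/ERF transcription factors made up the larger group, with 118 of 197 tested. A further 46 had 0 counts in all libraries and 33 fell under the filter. Their levels spread widely: mean FPKM over the 6 samples ran from 0.0923 to 703 among the tested genes, with 29 under 1 and 8 at 100 or more. By the study's thresholds 7 of the 118 were higher and 9 lower in nts, beside 2.06% and 3.37% of all tested genes. The median log2 change was 0.14, also when genes without counts in A18 or nts were placed at their bound, and 64 of the 118 were above 0. In 41 the genotypes did not overlap, 19 with nts higher and 22 with nts lower, where 24.3% of all tested genes did not overlap. Without A18 replicate 2 there were 15 higher genes (background 4.29%), without nts replicate 3 there were 13 lower (5.6%), and without both there were 19 higher and 17 lower (4.86% and 6.71%). Sample quality weights also gave 19 higher and 17 lower, at backgrounds of 4.53% and 6.53%, while limma on log2(FPKM + 1) left 1 lower (2.23%).

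**Figure D2:**
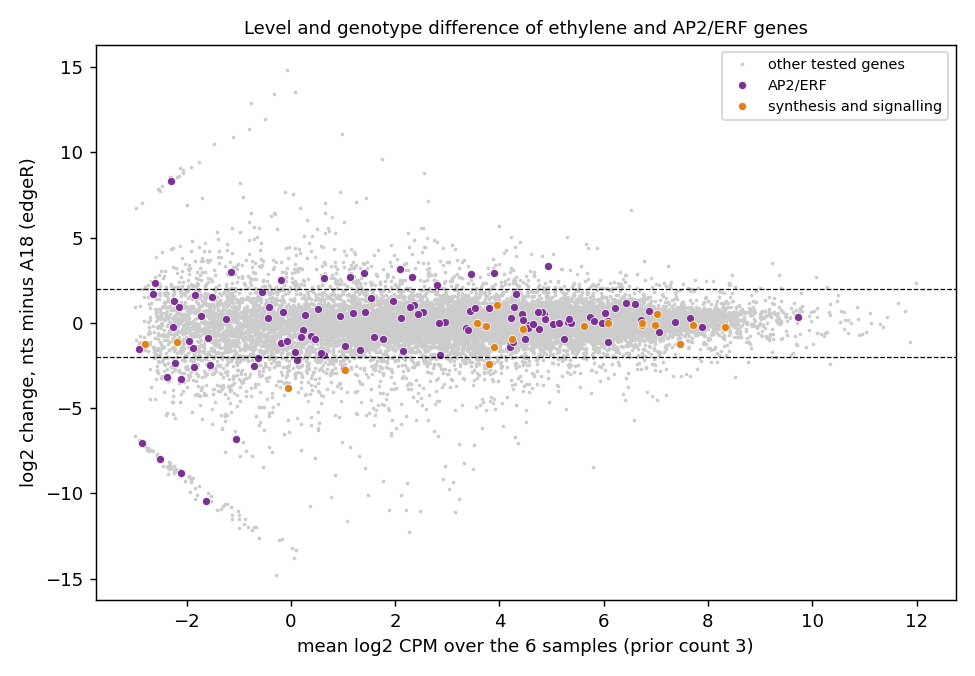
Mean log2 CPM (counts scaled to library size, prior count 3) against the edgeR log2 change (nts minus A18) for 118 AP2/ERF genes, 20 synthesis and signalling genes and all other tested genes, with dashed lines at a log2 change of 2 and -2. Of the pathway genes 3 of 20 were past the study's thresholds, and of the AP2/ERF genes 16 of 118, beside 5.43% of all tested genes. Pathway genes extend beyond the lines only below, AP2/ERF genes on both sides. The diagonal arms at low level are genes with 0 counts in a genotype.

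By subfamily, genes named as ethylene response or ethylene-responsive element binding factors had 18 of 28 tested, of which 4 were lower and 0 higher. Of all tested genes 3.37% were lower and 2.06% higher, the shares to set beside each count here. Integrase-type genes, an annotation name for the AP2 DNA-binding fold, had 66 of 101 tested, with 5 lower and 5 higher. AP2/B3 genes had 19 of 43 tested, with 2 higher and 0 lower. Most genes of that description are B3-domain proteins in Arabidopsis, and without them the AP2/ERF counts were 5 higher and 9 lower of 99. The 11 tested genes named related to AP2, and the 4 of the DREB-type and double AP2 kind, had none past the thresholds. No test of the differences between subfamilies was made.

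Among the lower AP2/ERF genes, several were expressed at low levels in A18 and not counted in nts. Phvul.001G084000 (chromosome 1, 12888838 to 12890955), an Integrase-type gene, had 6.15, 0.237 and 2.76 FPKM in A18 and was not counted in any of the 3 nts libraries. Within A18 its counts were 418, 12 and 165, so replicate 2 lay far below the others. With the floor of 3 counts in each library it was at least 60.9-fold lower. It passed the filter through A18 alone, so its p-values lend no support to a difference. The adjusted p was 0.113 with edgeR, 9.18e-07 with DESeq2 and 0.0411 with edgeR without A18 replicate 2.

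Phvul.007G193700 (chromosome 7, 31554975 to 31555610) is described as ethylene response factor 1, which in Arabidopsis joins ethylene and jasmonate signals in defence. It had 0.593, 1.71 and 1.95 FPKM in A18 and 0 counts in nts, at least 19.1-fold lower. Its adjusted p (0.0894 with edgeR, 2.36e-05 with DESeq2) is likewise no support, as A18 alone took it past the filter. Phvul.001G187100, an Integrase-type gene annotated to defence against fungi, had 3.70, 3.66 and 7.84 FPKM in A18 and 4 counts in nts replicate 3 alone, or 0.122 FPKM (edgeR log2 change -6.78 ± 1.34, adjusted p = 0.0841). It was past the study's thresholds under all 14 alternatives. Since it too passed the filter through A18 alone, this tally and the p-value lend no support to a difference.

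Phvul.007G222600 and Phvul.007G128100 likewise had counts in all 3 A18 libraries and none in nts, at least 10.9-fold and 5.55-fold lower. At these levels a count of 0 in nts says only that the transcript was not detectable at this depth.

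Other lower genes were still detected in nts. Phvul.010G050700, ethylene-responsive element binding factor 13 (chromosome 10, 7910189 to 7910824), had 2.71, 11.7 and 11.4 FPKM in A18 and 0.304, 1.30 and 2.19 in nts (edgeR log2 change -2.70 ± 0.89, adjusted p = 0.190). A18 replicate 1 lay only just above the highest nts library, and the call was lost in 4 of 14 alternatives, without A18 replicate 2 or 3 or nts replicate 2 among them. This gene is 1 of 4 neighbouring factor 13 genes between 7847042 and 7915416, and its neighbour Phvul.010G050800, under the filter, had 0.304, 6.58 and 0.496 FPKM in A18 and 0 counts in nts.

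Phvul.006G179800, ethylene responsive element binding factor 2, which the table annotates to vasculature development and cell division, had 3.29, 4.33 and 3.46 FPKM in A18 and 1.02, 0.912 and 0.343 in nts. The A18 libraries were tightly grouped above all nts libraries (edgeR log2 change -2.17 ± 0.58, adjusted p = 0.138). It was past the thresholds in 9 of 14 alternatives, and fell short of them at -1.93 without A18 replicate 2 and -1.85 without nts replicate 3. A second ethylene response factor 1 gene, Phvul.007G127800, had 1.81, 0.838 and 2.91 FPKM in A18 and 0.663, 0.262 and 0.287 in nts (edgeR log2 change -2.05 ± 0.73, adjusted p = 0.217). Its call was lost in 7 of 14 alternatives, without A18 replicate 1 or 3 or nts replicate 2 or 3 among them. Phvul.010G158700, the last of the 9, stayed under 1 FPKM in all libraries and kept its call in only 6 of 14 alternatives, with each left-out sample but nts replicate 3 ending it.

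Just short of a log2 change of 2 were Integrase-type genes with higher levels. Phvul.005G105200, annotated to responses to salt and water deprivation, had 6.32, 12.2 and 12.5 FPKM in A18 and 2.86, 3.17 and 2.05 in nts (edgeR log2 change -1.88 ± 0.38, adjusted p = 0.0867; 0.000231 with DESeq2). Phvul.005G180600 had 14.2, 7.88 and 16.9 FPKM in A18 and 2.89, 3.63 and 5.18 in nts (edgeR log2 change -1.63 ± 0.40, adjusted p = 0.117). Both separated the genotypes, and both were named after their values were seen.

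On the higher side the lowest adjusted p belonged to Phvul.007G102800 (chromosome 7, 11792232 to 11793317). It is described as an AP2/B3 transcription factor, the kind that in Arabidopsis includes the RAV and TEMPRANILLO repressors of flowering, and the table annotates it to photoperiodism and flowering. It had 8.40, 10.7 and 6.94 FPKM in A18 and 55.6, 36.6 and 161 in nts, every nts library lying more than 3 times above every A18 library. The log2 change was 3.36 ± 0.63 (edgeR adjusted p = 0.0781, n = 3) and the gene was past the study's thresholds in all 14 alternatives. Without nts replicate 3, the highest library, the log2 change was smaller at 2.46 (edgeR adjusted p = 0.0312).

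Another gene of the AP2/B3 description, Phvul.003G111800 on chromosome 3, had 34.01, 90.5 and 44.3 FPKM in A18 and 91.4, 59.2 and 198 in nts. Here A18 replicate 2 reached into the nts range (edgeR log2 change 1.09 ± 0.60, adjusted p = 0.398). In both relatives nts replicate 3 was the highest library of all 6.

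Integrase-type genes supplied 5 of the 7 higher factors. Phvul.010G114900 (chromosome 10, 39188604 to 39189155) had 7.99, 10.1 and 11.6 FPKM in A18 and 133, 55.2 and 24.3 in nts. The A18 libraries were close together and the nts libraries spread over a wide range above them (edgeR log2 change 2.91 ± 0.62, adjusted p = 0.0969). Without nts replicate 3, the lowest nts library, the edgeR adjusted p was 0.0303. Without nts replicate 1, the highest library, the log2 change was 2.08. Phvul.005G170600 (chromosome 5, 39651446 to 39652078) had 3.57, 5.79 and 9.19 FPKM in A18 and 43.3, 21.0 and 62.5 in nts, again without overlap (edgeR log2 change 2.86 ± 0.54, adjusted p = 0.0801).

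Phvul.006G114100 (chromosome 6, 22249467 to 22250018) had 1.43, 4.82 and 1.49 FPKM in A18 and 32.2, 29.0 and 8.35 in nts. A18 replicate 2 and nts replicate 3 were nearest to each other, and without A18 replicate 2 the log2 change was 4.15 (edgeR adjusted p = 0.0453), against 3.18 ± 0.77 with all samples (edgeR adjusted p = 0.117). Phvul.007G135300 had 1.68, 2.28 and 1.10 FPKM in A18 and 7.36, 4.52 and 19.5 in nts (edgeR log2 change 2.698 ± 0.66, adjusted p = 0.117). Without nts replicate 3 its log2 change was 1.85 and the call was lost, and it was kept in 12 of 14 alternatives.

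Phvul.002G310200, which the table annotates to multidimensional cell growth, had 3.53, 7.38 and 2.73 FPKM in A18 and 34.4, 23.2 and 5.66 in nts. It is the 1 of the 16 AP2/ERF genes past the thresholds whose genotypes overlapped, A18 replicate 2 lying above nts replicate 3 (edgeR log2 change 2.24 ± 0.74, adjusted p = 0.191). The call was lost in 5 of 14 alternatives, among them those that left out A18 replicate 1 or 3, or nts replicate 1 (1.70). The last, the AP2/B3-like gene Phvul.001G018400, had 0 counts in A18 and 0.474, 0.230 and 0.590 FPKM in nts, at least 12.02-fold higher.

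**Figure D3:**
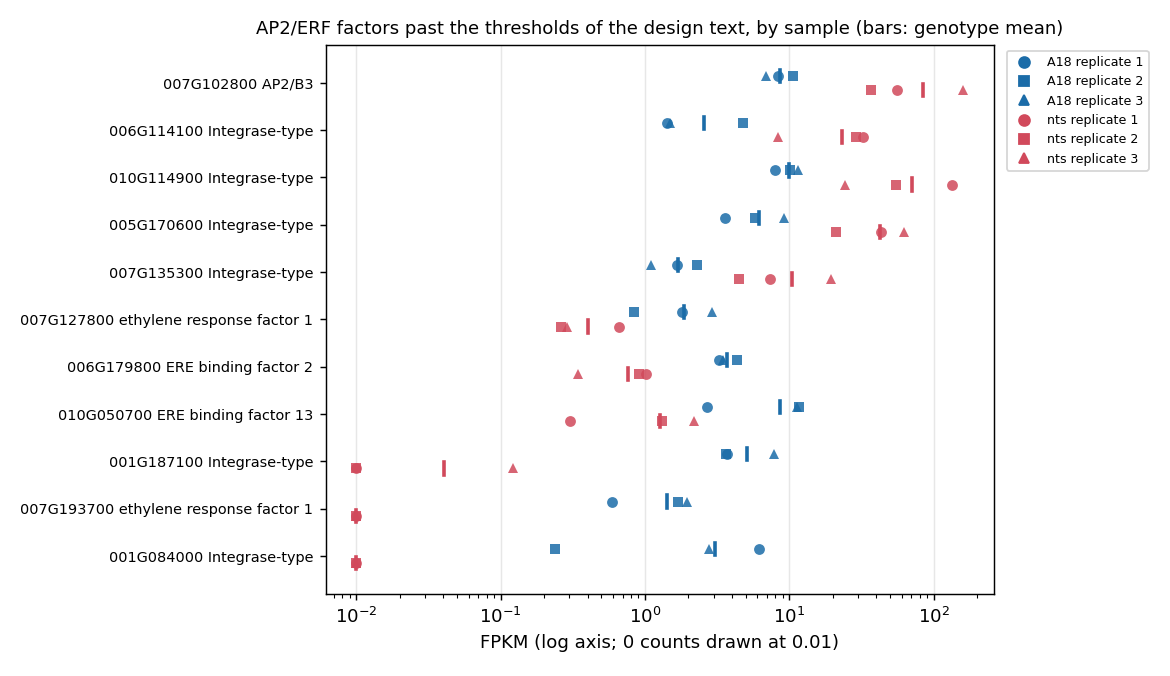
FPKM (log axis) in each sample of the 11 AP2/ERF genes that were past the study's thresholds, separated the genotypes and reached a mean of at least 1 FPKM in a genotype, with a vertical bar at each genotype's mean and 0 counts drawn at 0.01. The 5 genes at the top lie higher in every nts library and the 6 below lie lower, with 001G084000 and 007G193700 at 0 counts in nts.

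The 3 most abundant AP2/ERF transcripts overlapped between the genotypes. Phvul.009G029600, related to AP2 4, a factor of the DREB branch that in Arabidopsis responds to light, drought and ethylene, had 574, 708 and 648 FPKM in A18 and 699, 715 and 872 in nts (edgeR log2 change 0.31 ± 0.27, adjusted p = 0.589). Phvul.009G251600, an ethylene-responsive element binding protein of the kind that includes regulators of the low-oxygen response, had 134, 341 and 159.9 FPKM in A18 and 337, 141 and 173 in nts (edgeR log2 change 0.07 ± 0.53, adjusted p = 0.963). Phvul.008G172200, another related to AP2 4, had 93.4, 310.1 and 124 FPKM in A18 and 204, 215 and 209 in nts (edgeR log2 change 0.27 ± 0.51, adjusted p = 0.823). Its log2 change was 1.11 without A18 replicate 2 (edgeR adjusted p = 0.0565) and 1.05 without A18 replicate 2 and nts replicate 3 (edgeR adjusted p = 0.0314). In the last pair of genes A18 replicate 2 stood more than 2-fold above the other A18 libraries.

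Such genes were frequent among the AP2/ERF factors. In A18 replicate 2, 29 of 118 tested AP2/ERF genes, or 24.6%, lay at least 2-fold above both other A18 libraries on the log2 CPM scale, where 9.53% of all tested genes did. For nts replicate 1 the shares were 8.47% and 1.52%, and for nts replicate 3 they were 16.9% and 8.70%. For A18 replicate 3 they were 1.69% and 1.95%. In that library 11.9% of AP2/ERF genes lay at least 2-fold below both others of the genotype, against 2.82% of all tested genes. These lower shares were 6.78% and 3.59% in A18 replicate 1 and 7.63% and 6.93% in A18 replicate 2. In nts replicates 1, 2 and 3 the lower shares were 6.78% and 3.52%, 4.24% and 3.11%, and 16.1% and 8.89%. These shares describe single libraries and were not tested.

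**Figure D4:**
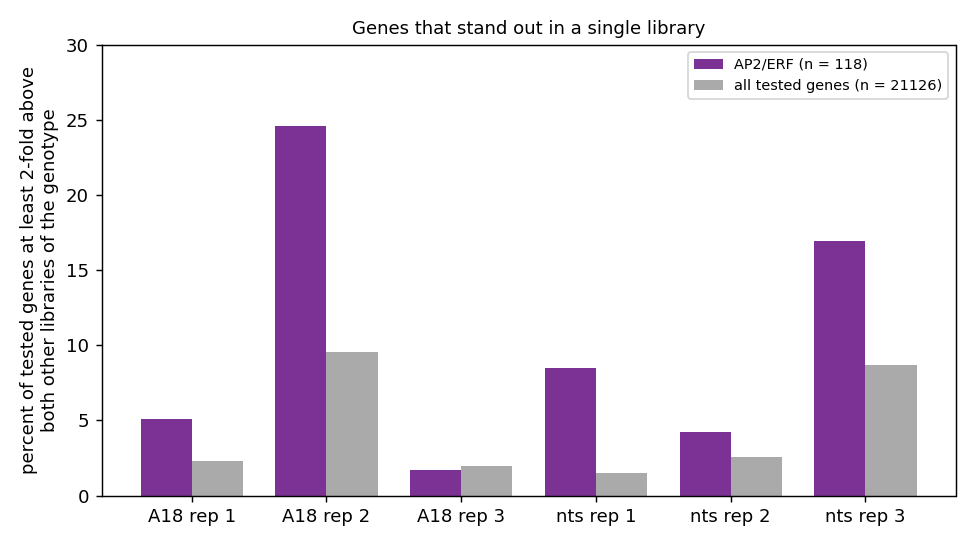
Percent of tested genes in each library that lay at least 2-fold above both other libraries of the same genotype (log2 CPM, prior count 3), for 118 AP2/ERF genes and all 21126 tested genes. A18 replicate 2 has the tallest bar, 24.6% for AP2/ERF genes against 9.53% for all tested genes.

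Examples of the 29 are named here after their values were seen. Phvul.008G271100, ethylene responsive element binding factor 3, a repressor type in Arabidopsis, had 47.6, 228 and 37.1 FPKM in A18 and 173, 86.0 and 53.1 in nts. Phvul.007G066500, an Integrase-type gene, went from 0.440 and 0.102 FPKM in A18 replicates 1 and 3 to 29.3 in replicate 2, and had 30.9, 15.6 and 2.08 in nts. Its neighbour Phvul.007G066520 had 11.5, 59.4 and 4.36 FPKM in A18 and 142, 95.8 and 11.7 in nts. In these 3 genes, as in ACC synthase 1, nts replicate 1 was the highest nts library and nts replicate 3 the lowest.

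Within the 29 as a whole, nts replicate 1 was the highest nts library in 13, nts replicate 3 in 13 and nts replicate 2 in 3. Of the 29, 2 were past the study's thresholds, where 5.43% of all tested genes were. AP2/ERF genes outside the description words held like cases: Phvul.004G122000, C-repeat-binding factor 4, of a family known for cold and drought responses, had 3.10, 317 and 1.896 FPKM in A18 and 93.2, 60.6 and 21.0 in nts. Phvul.011G125200, erf domain protein 9, had 12.6, 184 and 7.82 FPKM in A18 and 53.6, 17.7 and 16.1 in nts. Of the 22 genes on this outside list 15 were tested. Beside 2.06% higher and 3.37% lower of all tested genes, 0 were lower and 1 was higher past those thresholds. It was a cytokinin response factor 4 gene, Phvul.002G162500, with 1.58, 0.646 and 1.33 FPKM in A18 and 5.30, 10.8 and 1.36 in nts, where nts replicate 3 fell inside the A18 range (edgeR log2 change 2.38 ± 0.75, adjusted p = 0.181). Its call was lost in 5 of 14 alternatives, without A18 replicate 2 (2.16) or nts replicate 2 (1.64) among them.

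The related to AP2.7 genes, whose Arabidopsis namesake delays flowering, pointed opposite ways: Phvul.011G071100 had 113, 89.3 and 103.2 FPKM in A18 and 41.5, 78.8 and 75.8 in nts, and Phvul.001G174400 had 52.8, 73.3 and 53.1 in A18 and 88.7, 82.3 and 108 in nts. Neither genotype pair overlapped, and the edgeR log2 changes were -0.56 ± 0.28 and 0.70 ± 0.26 (adjusted p = 0.354 and 0.236). Phvul.010G124700, related to AP2 2, had 202 ± 36.7 FPKM in A18 and 161 ± 37.99 in nts (SD, n = 3; edgeR adjusted p = 0.662). The related to AP2 1 gene Phvul.001G023700 had 155, 289 and 149 FPKM in A18 and 44.5, 31.6 and 189 in nts, so that nts replicate 3 alone read like A18 (edgeR log2 change -1.10 ± 0.74, adjusted p = 0.494).

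Beyond the words of the rule, the genes shared annotation and position. Of the 197 AP2/ERF genes, 130 carry the GO term ethylene-activated signaling pathway in the table, and so do all 6 receptors. Of the 225 genes, 58 stand directly beside another member, in 23 runs of up to 5 genes. The longest is on chromosome 1 from 41325122 to 41396669. Reads from near-identical copies in such runs may have been divided between them.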

How the data were processed

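RNA sequencing of 6 samples gave the deposited table used here. Per the file headers it holds raw counts per gene and FPKM values made by the authors, in which genes with 0 counts stand at 0.0001 (set to 0 here). The submitters' processing notes name cutadapt 1.9 and FastQC. Aligner, counting tool, strand setting and genome build are not stated in what was used here, so coordinates are as the table prints them. Among counts from 1 to 39, 29.8% to 33.0% per library were multiples of 4, against 23.1% of whole numbers in that range, so a count need not be 1 fragment.

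Counts were tested with edgeR 4.0.16 in R 4.3.3 (robust quasi-likelihood F test, TMM factors, filterByExpr, genotype as the only term), with Benjamini-Hochberg adjustment over 21126 genes. Log2 changes are nts minus A18; their SE, taken from the size of the change and F, restates the test. The common biological coefficient of variation was 0.487. Between replicates the chi-square per gene was at least 135, so none was a repeat deposit. Floors cover counting error only. The procedure was run on simulated data in which no library was made to stand apart, so that run does not cover the effect of such libraries. Alternatives used DESeq2 1.42.0, limma 3.58.1 on log2(FPKM + 1) and log2(FPKM + 0.1), other scaling and filters, a replicate block and left-out libraries; leaving out A18 replicate 2 with nts replicate 3, and sample quality weights, were added after seeing the data.

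Members and lists were chosen with earlier results of these data known. Genes were named as those with an adjusted p under 0.05, up to 8 AP2/ERF and 5 pathway genes per direction past the study's thresholds with separated genotypes and a mean of at least 1 FPKM, the 3 most abundant per role and up to 5 from the pathway lists. Others were named after their values were seen. The 3 lists of pathway, AP2/ERF and response genes outside the rule, and the marker lists, were drawn by description words. Flower and seed markers (195 genes) summed to 5583 to 7983 FPKM in A18 and 5676 to 6641 in nts. The RefSeq gene table for this species matched 0 members and was not used, and sequences are not printed here.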

Additional observations from a re-analysis of the deposited data

How the results depend on the processing

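Counts past the study's thresholds kept within 1.5 times of the reported ones with RLE size factors, DESeq2, no filter on low counts and limma on log2(FPKM + 0.1). Limma on log2(FPKM + 1), which compresses low genes, left 1 pathway gene and 1 lower AP2/ERF gene, where 2.23% of all tested genes were lower. Without A18 replicate 2 and nts replicate 3 together there were 7 pathway genes, 17 lower and 19 higher AP2/ERF genes. Of all genes in that fit 6.71% were lower and 4.86% higher. Sample quality weights gave 17 lower and 19 higher AP2/ERF genes, beside 6.53% and 4.53% of all genes. Leaving out 1 sample gave 2 to 4 pathway genes, 7 to 13 lower and 6 to 15 higher AP2/ERF genes, the 15 without A18 replicate 2. Over all genes those fits gave 2.97% to 5.6% lower and 1.71% to 4.29% higher. Genes with an adjusted p under 0.05 numbered 24 with DESeq2 (11.3% of all genes), 46 with quality weights (24.4%) and 39 without both libraries (19.9%). Limma on log2(FPKM + 1) and log2(FPKM + 0.1) gave 3 and 5 (2.17% and 2.26%). With 1 sample left out there were 0 to 7 (0% to 4.45% of all genes). The cause was not tested. With the replicate block 2 pathway genes, 7 lower and 9 higher AP2/ERF genes (backgrounds 3.3% lower and 2.13% higher) were past the thresholds and 0 had an adjusted p under 0.05; same-numbered samples did not deviate together (correlations of -0.016, -0.130 and 0.039), so the numbers were not taken as pairs.

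Of 476 values for 34 genes (the named genes and every other called member), 400 kept direction and call, 52 lost the call, 4 gained it and 20 changed sign, the last all in genes with no call. Phvul.006G144900 had 0.12 with the replicate block, 0.035 and 0.038 with the FPKM fits and -0.30 to 0.63 with 1 sample left out. Phvul.007G129500 had 0.0040 with the replicate block, 0.027 without both libraries, 0.018 with quality weights and -0.22 to 0.29 with 1 left out. With 1 left out Phvul.006G011200 ran from -0.34 to 0.042, Phvul.009G251600 from -0.38 to 0.74, Phvul.008G172200 from -0.059 to 1.11, Phvul.001G210200 from -0.21 to 0.014 and Phvul.008G214200 from -0.76 to 0.032. Depth limits the genes under 1 FPKM, where a few counts set the value.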

Other observations

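The 13 genes that met the description words by chance were all tested, and 0 were past the study's thresholds, where 5.43% of all tested genes were. Methylenetetrahydrofolate reductase 2 (Phvul.007G281200), an enzyme of one-carbon metabolism, averaged 309 ± 56.5 FPKM over A18 and 231 ± 21.5 over nts (edgeR log2 change -0.36 ± 0.27, adjusted p = 0.542, n = 3). A PAP2-related phosphatidic acid phosphatase (Phvul.010G156400), of the enzymes that make diacylglycerol, had 33.0 ± 5.45 and 57.4 ± 4.41 FPKM, with every nts library above every A18 library (edgeR log2 change 0.86 ± 0.22, adjusted p = 0.126, n = 3). The remaining 12 overlapped between the genotypes, where 24.3% of all tested genes did not.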
